A study of Mus musculus with 6 samples.

Results

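The 10 genes described here encode secreted proteins of the extracellular matrix: the cartilage intermediate layer proteins Cilp and Cilp2, the ADAMTS-like proteins Adamtsl1, Adamtsl2, Adamtsl4 and Adamtsl5, the fibrillins Fbn1 and Fbn2, and the latent TGF-beta binding proteins Ltbp1 and Ltbp2. They were taken by symbol from a transcript table that sums to 17558 genes. The list was chosen by name with the results of these same comparisons known, so the group differences in count and TPM count as selected on, and the levels and fold changes of the 10 genes are given as a description, with no test. RNA was sequenced from C2C12 cells, a permanent mouse myoblast line whose cells stop dividing and fuse into myotubes once growth serum is replaced by horse serum with insulin, transferrin and selenium. All cells were harvested after 48 h in that differentiation medium. Control cells (shScr, labelled wild type) stably carried a scrambled hairpin RNA, and the other groups stably carried a hairpin labelled as a knockdown of Pkm1 (shPkm1) or of Pkm2 (shPkm2), the splice isoforms of the glycolytic enzyme pyruvate kinase. Each group had 2 libraries. The labels do not say whether a hairpin line was a clone, or whether the libraries of a group came from separate cultures, so the spread between libraries may be technical.

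Fibrillins are long calcium-binding glycoproteins that join end to end into microfibrils, the threads that carry elastin in elastic tissue and run alone through the connective tissue around muscle fibres. Latent TGF-beta binding proteins are built from the same kinds of repeats, lie along microfibrils and, in the case of Ltbp1, tether the inactive form of the growth factor TGF-beta to the matrix. ADAMTS-like proteins share the ancillary domains of the secreted ADAMTS proteinases but lack the catalytic domain, and several bind fibrillin. Cilp is a secreted glycoprotein first described in cartilage that is known to bind TGF-beta1 and to oppose IGF1, a growth factor for muscle.

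The libraries held 18216896 to 19796036 estimated counts. Levels are given as TPM (transcript abundance scaled to length and library total), which can be compared between genes, and differences as CPM (counts relative to library size, with TMM composition factors), which can be compared between libraries. The transcript of the Pkm1 isoform stood at 859.4 and 879.7 CPM (of the library total) in shScr, 321.3 and 295.8 in shPkm1, and 348.6 and 364.4 in the libraries labelled shPkm2. The transcript of the Pkm2 isoform stood at 1689.4 and 2266.1 in shScr, 1692.1 and 1870.1 in shPkm1, and 3704.1 and 3768.8 in the libraries labelled shPkm2, so the named target was not lower there, and every direction given below for that group is that of libraries so labelled. All 12 markers of differentiated muscle were lower in shPkm1 than in shScr and lower again in the libraries labelled shPkm2. Their summed TPM was 53261.66 and 40313.65 in shScr, 19044.75 and 20561.84 in shPkm1, and 1123.45 and 1064.56 in the libraries labelled shPkm2. Their part in the results below was not tested. In bulk RNA, fewer cells of a type and less RNA per cell cannot be told apart.

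Across all 12643 genes that passed the low-count filter, 63.1% were called in shPkm1 against shScr (31.8% higher and 31.4% lower), 68.0% in shPkm2 against shScr (33.9% higher and 34.2% lower) and 53.0% in shPkm2 against shPkm1 (25.7% higher and 27.3% lower), by edgeR's quasi-likelihood test with a Benjamini-Hochberg adjusted p under 0.05. Of the 10 matrix genes, 9 passed the filter and Fbn2 did not. In shPkm1 against shScr 6 were called higher and 2 lower, in shPkm2 against shScr 2 higher and 6 lower, and in shPkm2 against shPkm1 none higher and 8 lower. The libraries of the groups did not overlap for 8 of the 9 genes in each contrast, against 81.0%, 83.9% and 79.8% of all tested genes. The genes were listed with these contrasts known and most genes were called, so nothing is read from these counts. In both contrasts with shPkm2, Cilp, Cilp2 and Adamtsl2 passed the filter only through the group where they were high. The median log2 fold change of the 9 genes was 1.37, -1.11 and -2.67 in the same order, and using the counting bounds of those 3 genes left these medians as they were, while that of all tested genes was at most 0.01. With library totals in place of composition factors the median of all genes moved to 0.19, 0.33 and 0.14 in these contrasts, and on log2(TPM + 1) to 0.31, 0.36 and 0.06. The split of called genes moved with it: edgeR called 4018 higher and 3966 lower in shPkm1 against shScr, against 5116 and 2656 with library totals and 6187 and 1736 by limma on log2(TPM + 1). In shPkm2 against shScr 4283 were higher and 4319 lower, against 6095 and 2702 with library totals and 6621 and 2123 on log2(TPM + 1). In shPkm2 against shPkm1 3246 were higher and 3457 lower, against 4280 and 2699 with library totals and 3235 and 2782 on log2(TPM + 1). Of the 27 fold changes of the 9 genes, 24 kept their sign in all 17 alternative analyses, and the 3 that did not are named below. The contrasts share libraries, so their values are given side by side and are not set against each other.

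**Figure D1:**
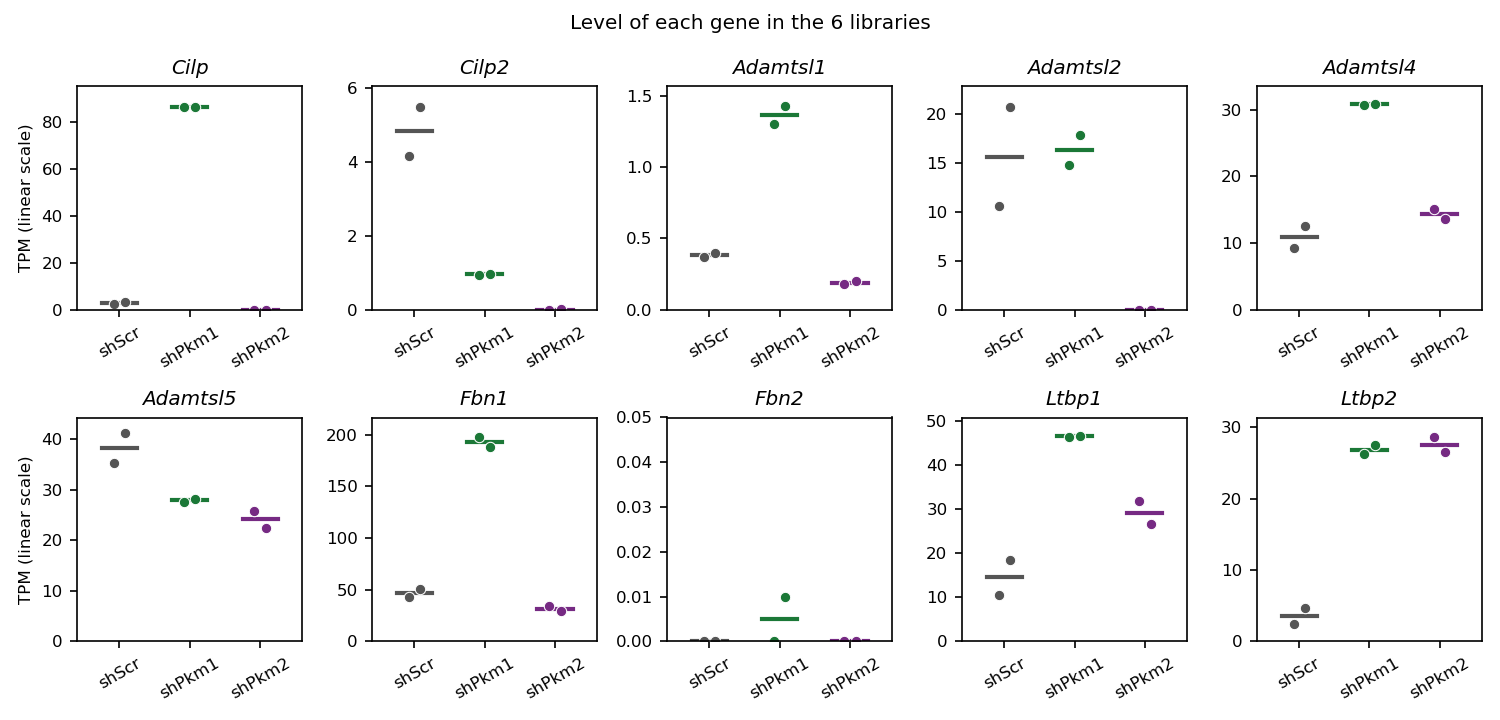
Level in TPM (linear axis from 0, scaled separately for each gene) of the 10 matrix genes in each library, with a point per library and a bar at the mean of the 2 libraries of a group. Cilp reached 86.62 and 86.44 TPM in shPkm1, Ltbp2 was high in both hairpin groups, and Cilp, Cilp2 and Adamtsl2 lay at or next to 0 in the libraries labelled shPkm2.

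Cilp (NCBI gene 214425, GRCm38.p6 chromosome 9, 65265180 to 65280614) was high in shPkm1 and near 0 in the libraries labelled shPkm2. Its level was 2.37 and 3.45 TPM in shScr, 86.62 and 86.44 TPM in shPkm1, and 0.04 and 0.06 TPM in the libraries labelled shPkm2, where it rested on 2 and 3 counts. The 3 groups did not overlap, with shPkm1 highest and shPkm2 lowest. In CPM it averaged 8.63 ± 1.54 (SD, n = 2) in shScr and 197.6 ± 7.63 (SD, n = 2) in shPkm1, a 22.8-fold difference (log2 fold change 4.51, SE 0.13). Against shScr the libraries labelled shPkm2 held 5 counts to 291, which is 73.4-fold lower with a 95% counting interval from 31.1 to 228. Against shPkm1 they held 5 counts to 7625, which is 1669-fold lower with an interval from 715 to 5140. These intervals cover counting error only.

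Cilp2 (NCBI gene 68709, chromosome 8, 69880366 to 69887392), the close relative of Cilp, was highest in the control libraries. It stood at 4.16 and 5.49 TPM in shScr, 0.94 and 0.98 TPM in shPkm1, and 0 and 0.02 TPM in the libraries labelled shPkm2, which held 1 count between them. Its groups did not overlap either, but shPkm1 lay below the control, opposite to Cilp. The difference between shPkm1 and shScr was 6.52-fold (log2 fold change -2.71, SE 0.213), from a mean of 13.89 ± 1.53 CPM (SD, n = 2) in shScr to 2.124 ± 0.142 CPM (SD, n = 2) in shPkm1. The libraries labelled shPkm2 held 589-fold less than shScr (1 count to 467; interval 105 to 23300) and 89.75-fold less than shPkm1 (1 count to 82; interval 15.7 to 3590). Of the summed TPM of Cilp and Cilp2, Cilp made up 36.3% and 38.6% in shScr and 98.9% in each shPkm1 library. The pair thus changed from mostly Cilp2 in shScr to almost only Cilp in shPkm1.

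Among the ADAMTS-like genes, Adamtsl2 (NCBI gene 77794, chromosome 2, 27079336 to 27108981) showed the other near-absence. Its protein binds fibrillin and Ltbp1, and its loss in people causes geleophysic dysplasia, a disorder with short stature and thick skin. It measured 10.6 and 20.78 TPM in shScr, 14.85 and 17.86 TPM in shPkm1, and 0 and 0.04 TPM in the libraries labelled shPkm2. The control libraries differed from each other by more than the means of shScr and shPkm1 did, and those groups overlapped. The log2 fold change of shPkm1 against shScr was -0.31 (SE 0.204), and its sign changed when shScr replicate 2 was left out (0.16) and on the TPM scale, while without shScr replicate 1 it was -0.65 and past the threshold. Against shScr the libraries labelled shPkm2 held 1 count to 1216, which is 1533-fold lower (interval 275 to 60600), and against shPkm1 1 count to 1122, which is 1228-fold lower (interval 220 to 48500).

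Adamtsl4 (NCBI gene 229595, chromosome 3, 95676201 to 95687927), whose protein binds fibrillin-1 and is needed for the fibres that hold the eye lens, was high in shPkm1. Its TPM values were 9.23 and 12.55 in shScr, 30.75 and 30.88 in shPkm1, and 15.06 and 13.61 in the libraries labelled shPkm2. In CPM the mean in shPkm1 was 2.17-fold that in shScr (log2 fold change 1.12, SE 0.112) and 2.28-fold that in the libraries labelled shPkm2 (log2 fold change of shPkm2 against shPkm1 -1.19, SE 0.111). The shPkm2 and shScr groups overlapped in CPM but not in TPM, with a log2 fold change of -0.07 (SE 0.115) that became positive with library totals in place of composition factors, without shScr replicate 2 and on the TPM scale (up to 0.41). It was called higher by limma on log2(TPM + 1) and on log2(TPM + 0.1), and in no other alternative.

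Adamtsl1 was highest in shPkm1, and Adamtsl5 in the control. Adamtsl1 (NCBI gene 77739, chromosome 4, 85513852 to 86428390), which encodes the secreted protein punctin, was the lowest of the tested genes in shScr, at 0.37 and 0.40 TPM, against 1.30 and 1.43 TPM in shPkm1 and 0.18 and 0.20 TPM in the libraries labelled shPkm2. In CPM it was 2.69-fold higher in shPkm1 than in shScr (log2 fold change 1.43, SE 0.233) and 2.61-fold lower in the libraries labelled shPkm2 (log2 fold change -1.38, SE 0.294). Between the hairpin groups it differed 7.01-fold (log2 fold change of shPkm2 against shPkm1 -2.81, SE 0.26). It rested on 17 to 143 counts per library. Adamtsl5 (NCBI gene 66548, chromosome 10, 80339793 to 80349030), whose protein can also bind fibrillins, was lower in both hairpin groups. It stood at 35.35 and 41.3 TPM in shScr, 27.68 and 28.23 TPM in shPkm1, and 25.87 and 22.52 TPM in the libraries labelled shPkm2. Against shScr the log2 fold change was -0.81 (SE 0.102) in shPkm1 and -1.11 (SE 0.103) in shPkm2. Between the hairpin groups the log2 fold change was -0.30 (SE 0.104), and this difference met the threshold of the fit in 8 of 17 alternative analyses.

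Promoter sequence was looked at for Cilp, Cilp2 and Adamtsl2, picked for their low values in the libraries labelled shPkm2, which had the least muscle marker RNA. In shPkm1, where these markers were also lower than in shScr, Cilp was 22.8-fold higher, Cilp2 6.52-fold lower, and Adamtsl2 overlapped shScr. Muscle regulatory factors such as MyoD bind E-boxes (CANNTG on either strand, a motif that equals its own complement). Whether such factors act on these genes was not tested. RefSeq promoter windows on GRCm38.p6 matched 8 of the 10 genes, with 9 windows. The 250 bases before the transcript start that the table uses are shown for these 3 genes and for Ltbp2, which was high in the same libraries, with E-boxes in capitals and each sequence on the strand of its gene. The windows lie at chr9:65264930-65265179 (plus strand) for Cilp, chr8:69887393-69887642 (minus) for Cilp2, chr2:27079129-27079378 (plus) for Adamtsl2 and chr12:84876492-84876741 (minus) for Ltbp2. That start can lie inside the gene span printed here, which reaches to the outermost transcript: the last 43 bases of the Adamtsl2 window and the last 67 of the Ltbp2 window fall within it, and none of those of Cilp and Cilp2. The Adamtsl5 window and the second of Ltbp1 lie wholly inside their gene spans, and those of Fbn1 and Adamtsl4 and the first of Ltbp1 in part.
Cilp: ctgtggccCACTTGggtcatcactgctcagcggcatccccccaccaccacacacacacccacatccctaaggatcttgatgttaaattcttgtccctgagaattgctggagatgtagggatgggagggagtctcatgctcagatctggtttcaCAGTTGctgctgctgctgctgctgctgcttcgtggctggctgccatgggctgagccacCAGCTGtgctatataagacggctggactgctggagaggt
Cilp2: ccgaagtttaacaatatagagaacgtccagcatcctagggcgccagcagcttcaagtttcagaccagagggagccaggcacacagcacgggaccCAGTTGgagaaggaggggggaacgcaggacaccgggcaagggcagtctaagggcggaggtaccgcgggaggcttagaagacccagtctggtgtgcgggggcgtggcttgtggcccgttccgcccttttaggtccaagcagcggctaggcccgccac
Adamtsl2: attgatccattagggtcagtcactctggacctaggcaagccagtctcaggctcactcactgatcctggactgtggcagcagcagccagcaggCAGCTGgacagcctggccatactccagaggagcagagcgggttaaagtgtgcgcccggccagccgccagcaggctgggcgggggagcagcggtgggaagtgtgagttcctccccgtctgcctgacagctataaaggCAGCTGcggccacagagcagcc
Ltbp2: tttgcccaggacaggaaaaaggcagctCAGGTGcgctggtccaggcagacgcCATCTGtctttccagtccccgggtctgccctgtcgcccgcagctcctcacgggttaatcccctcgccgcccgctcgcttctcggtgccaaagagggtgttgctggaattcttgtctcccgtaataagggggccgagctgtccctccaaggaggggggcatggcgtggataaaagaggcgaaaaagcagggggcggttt
Counted back from that transcript start, Cilp held 3 E-boxes, which begin at -242, -97 and -39, Cilp2 held 1 (at -156), Adamtsl2 held 2 (at -158 and, within its gene span, -22) and Ltbp2 held 2 (at -223 and -198). Bases just after the start were found in a transcript of a second annotation (GENCODE) for Cilp2, Adamtsl2, Ltbp2, Fbn1 and Adamtsl4. They were not found for Cilp, Adamtsl5 or either window of Ltbp1, so the Cilp positions rest on the RefSeq start alone. The windows of Fbn1 and Adamtsl4 and 1 of the 2 of Ltbp1 held none. An E-box occurs in 66.2% of all 32851 promoter windows of the same length, and the CAGCTG form in 4271 of them. That form, an E-box by definition, was the last E-box of Cilp, both of Adamtsl2 and the 1 in Adamtsl5. CATTCC, the core read by TEAD factors (12.6% of windows), TGANTCA, the AP-1 motif (6.7%), and GTCTAGAC, the SMAD palindrome (0.2%), were searched on both strands and were not in these 9 windows. A match describes the letters and is not a binding site.

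Fbn1 (NCBI gene 14118, chromosome 2, 125300594 to 125506485), the main fibrillin of adult microfibrils and the Marfan syndrome gene in people, had the highest TPM of the 10 genes in every library. It measured 42.71 and 50.66 TPM in shScr, 197.88 and 188.11 TPM in shPkm1, and 33.83 and 29.78 TPM in the libraries labelled shPkm2. The 3 groups were apart, with shPkm1 highest. In CPM the means were 334.9 ± 12.2 in shScr, 1058 ± 6.55 in shPkm1 and 166.4 ± 8.83 in shPkm2 (SD, n = 2 each). The shPkm1 mean was thus 3.16-fold that of shScr (log2 fold change 1.66, SE 0.107) and the shPkm2 mean 2.01-fold lower than that of shScr (log2 fold change -1.01, SE 0.106). Directly compared, the hairpin groups differed 6.36-fold (log2 fold change of shPkm2 against shPkm1 -2.67, SE 0.111). On the TPM scale Fbn1 in shPkm2 against shScr stood at -0.54, where the median of all genes was 0.36. Fbn2, the fibrillin best known from the embryo, had 1 count in 1 shPkm1 library and none in the other 5 libraries, so no fold is given.

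Ltbp2 (NCBI gene 16997, chromosome 12, 84783212 to 84876558), which lies on microfibrils but does not hold latent TGF-beta, was high in both hairpin groups. It stood at 2.48 and 4.68 TPM in shScr, 26.23 and 27.54 TPM in shPkm1, and 28.59 and 26.55 TPM in the libraries labelled shPkm2. In CPM it was 5.85-fold (log2 fold change 2.55, SE 0.166) and 5.62-fold (log2 fold change 2.49, SE 0.166) above shScr. The hairpin groups overlapped, with a log2 fold change between them of -0.06 (SE 0.147) that ranged from -0.15 to 0.29 over the alternatives, among them library totals (0.07) and the TPM scale, where it was positive. Of the 9 tested genes, Ltbp2 had the smallest fitted difference between the hairpin groups.

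Ltbp1 (NCBI gene 268977, chromosome 17, 75005480 to 75392512), the classical carrier of latent TGF-beta1, lay between these patterns. Its TPM was 10.58 and 18.46 in shScr, 46.39 and 46.52 in shPkm1, and 31.91 and 26.5 in the libraries labelled shPkm2. The groups did not overlap, and shPkm1 was highest. Compared with shScr, the log2 fold change was 1.37 (SE 0.157) in shPkm1 and 0.58 (SE 0.156) in shPkm2, and between the hairpin groups it was -0.79 (SE 0.153). The control libraries differed, so the value for shPkm2 against shScr was 0.31 without shScr replicate 1 and 0.93 without shScr replicate 2. Ltbp2 made up 19.0% and 20.2% of the summed TPM of Ltbp1 and Ltbp2 in shScr, 36.1% and 37.2% in shPkm1, and 47.26% and 50.05% in the libraries labelled shPkm2.

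**Figure D2:**
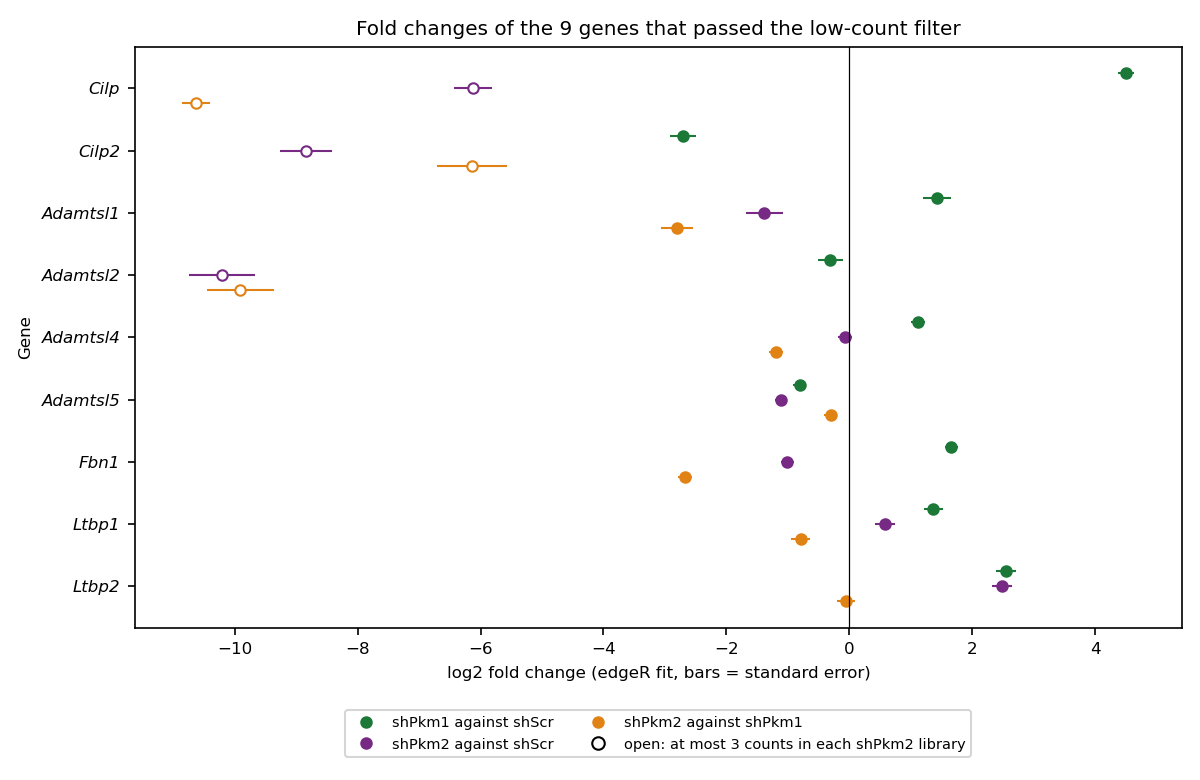
Log2 fold change (horizontal axis, edgeR fit, bars are the standard error) of the 9 genes that passed the filter, in 3 contrasts; open points mark genes with at most 3 counts in each shPkm2 library, whose fitted value depends on the prior count and is no bound. Cilp lies at 4.51 for shPkm1 against shScr, Ltbp2 lies at 2.55 and 2.49 for both hairpin groups, and the points of Adamtsl2 (shPkm1 against shScr), Adamtsl4 (shPkm2 against shScr) and Ltbp2 (shPkm2 against shPkm1) lie near 0 and changed sign in other analyses, including other scalings.

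The order of the genes by TPM changed between groups. In shScr it ran from Fbn1 through Adamtsl5, Adamtsl2, Ltbp1, Adamtsl4, Cilp2, Ltbp2, Cilp and Adamtsl1 to Fbn2. Within that order the neighbours Adamtsl2, Ltbp1 and Adamtsl4 overlapped in their ranges over 2 libraries, as did Cilp2, Ltbp2 and Cilp. In shPkm1 Cilp moved up to directly below Fbn1, followed by Ltbp1, Adamtsl4, Adamtsl5, Ltbp2, Adamtsl2, Adamtsl1, Cilp2 and Fbn2, with no overlap between neighbours. In the libraries labelled shPkm2, Fbn1, Ltbp1 and Ltbp2 were the highest and overlapped in turn, followed by Adamtsl5, Adamtsl4 and Adamtsl1, and the 4 lowest genes, Cilp, Adamtsl2, Cilp2 and Fbn2, overlapped near 0. The summed TPM of the 10 genes was 117.8 and 157.8 in shScr, 432.6 and 428.0 in shPkm1, and 135.5 and 119.3 in the libraries labelled shPkm2. Fbn1 made up 36.2% and 32.1% of it in shScr, 45.7% and 44.0% in shPkm1, and 24.97% in each library labelled shPkm2.

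The division of each gene's counts over its RefSeq transcripts was not used to choose the genes. For Fbn1 the curated transcript held 71.9% and 55.3% of the counts in shScr, 56.9% and 77.4% in shPkm1, and 33.0% and 44.1% in the libraries labelled shPkm2. A predicted Fbn1 transcript took most of the rest, with 28.1% and 40.6% in shScr, 42.4% and 22.4% in shPkm1, and 65.3% and 55.9% in the libraries labelled shPkm2. This predicted form was the larger one in both libraries labelled shPkm2 and in no other library, but the curated share of the 2 shPkm1 libraries also lay far apart, at 56.9% and 77.4%. No test was run on the transcript shares.

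In counts, the curated Fbn1 transcript had 3700.2 and 3362.2 in shScr, 11269.1 and 16262.3 in shPkm1, and 1210.5 and 1480.5 in the libraries labelled shPkm2. The predicted form had 1447.8 and 2468.7 in shScr, 8396 and 4700 in shPkm1, and 2395.2 and 1875.5 in the libraries labelled shPkm2, where it overlapped the control. As the reads were divided, the lower Fbn1 total in those libraries lay in the curated form. These shares rest on how the authors divided reads that transcripts have in common. With curated transcripts alone, the log2 fold change of Fbn1 became -1.71 for shPkm2 against shScr and -3.48 for shPkm2 against shPkm1, that of Ltbp1 became 2.58 for shPkm1 against shScr and -1.88 between the hairpin groups, and that of Adamtsl1 became -2.60 and -4.25 in the contrasts with shPkm2. For Ltbp1, 11 transcripts held counts, and the curated one made up 8.7% and 9.1% of the total in shPkm1, against 7.1% and 2.0% in shScr and 4.2% in each library labelled shPkm2. Of the predicted Ltbp1 forms, 1 was lower in shPkm1 than in the other groups (11.4% and 7.9%, against 28.7% and 30.1% in shScr and 27.3% and 20.6% in the libraries labelled shPkm2). Another was higher there (7.9% and 15.3%, against at most 7.2% elsewhere), as was a minor one (2.4% and 3.2%, against at most 1.0%). The curated share of Ltbp2 ran from 49.2% to 75.3% and the first curated form of Adamtsl4 from 50.5% to 70.6%, with no overlap between the hairpin groups for Ltbp2 (57.4% and 53.0% in shPkm1 against 65.3% and 75.3% in those labelled shPkm2) and overlap between the other pairs of groups. Cilp and Cilp2 were represented by 1 transcript each. In RefSeq 8 of the 10 genes overlap an annotated non-coding RNA or pseudogene, and use of strand in counting is not stated, so reads of such a neighbour cannot be told apart.

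**Figure D3:**
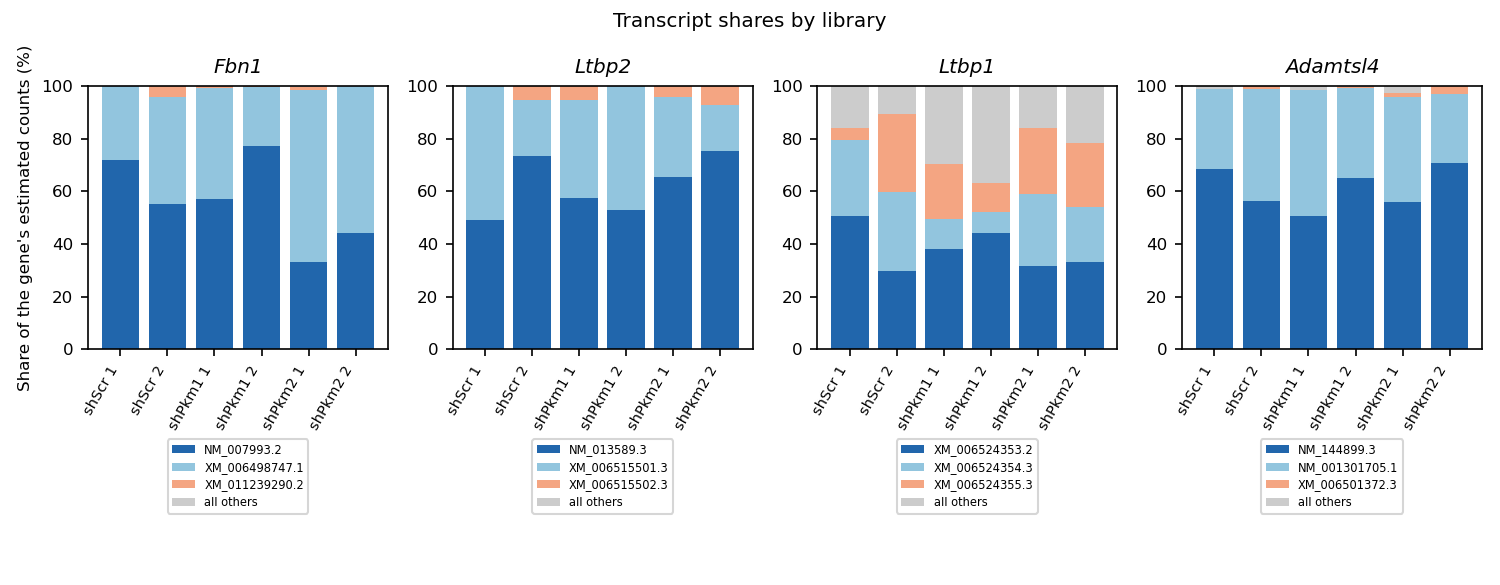
Share of each gene's estimated counts (vertical axis, percent, stacked bars to 100) assigned to its 3 leading RefSeq transcripts and to all others together, in each of the 6 libraries. The curated Fbn1 form holds 33.0% and 44.1% in the libraries labelled shPkm2 and at least 55.3% in the others, and the forms of Ltbp2 and Adamtsl4 vary between libraries of a group.

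The genes with the most similar pattern were found by the root mean square difference of log2 CPM, centred over the 6 libraries, among 10742 genes; it is a description, and all genes share the libraries. For Adamtsl5 the nearest were Sec14l1 (0.0489), Tmco3 (0.0513) and Nes (0.0528), and for Adamtsl4 they were Ccn1 (0.0708), Clip1 (0.0824) and Atp2b4 (0.0837). Ltbp1 lay nearest to Nucb2 (0.102), Fbxo36 (0.102) and Nynrin (0.104). For Fbn1 the nearest were Rdh5 (0.134), Rflnb (0.140) and the proteinase gene Adamts12 (0.159). Rflnb was also among the nearest to Adamtsl1, at 0.192, after G0s2 (0.149) and Tagln (0.177). Ltbp2 lay nearest to Pdgfra (0.137), the receptor that marks mesenchymal progenitors, then to Kitl (0.192) and Ereg (0.225). Cilp2 was closest to Tspan33 (0.121), Smim5 (0.252) and Slc2a6 (0.257), and Adamtsl2 to Ctrb1 (0.555), the muscle gene Csrp3 (0.586) and Fndc5 (0.589). The closest genes to Cilp were Scara5 (0.974), Cdkn1c (1.22) and Rtn4r (1.25). This measure grows with the size of a gene's changes. Cilp ran from -5.186 to 4.808 on the centred scale, and Scara5 from -4.004 to 3.572 with the groups in the same order. Cilp, Cilp2 and Adamtsl2 held at most 3 counts in each library labelled shPkm2, so their distances depend in part on the prior count. Scara5 reached 27.63 and 28.92 CPM in shPkm1 from 3.993 and 2.655 CPM in shScr, a smaller step than that of Cilp.

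**Figure D4:**
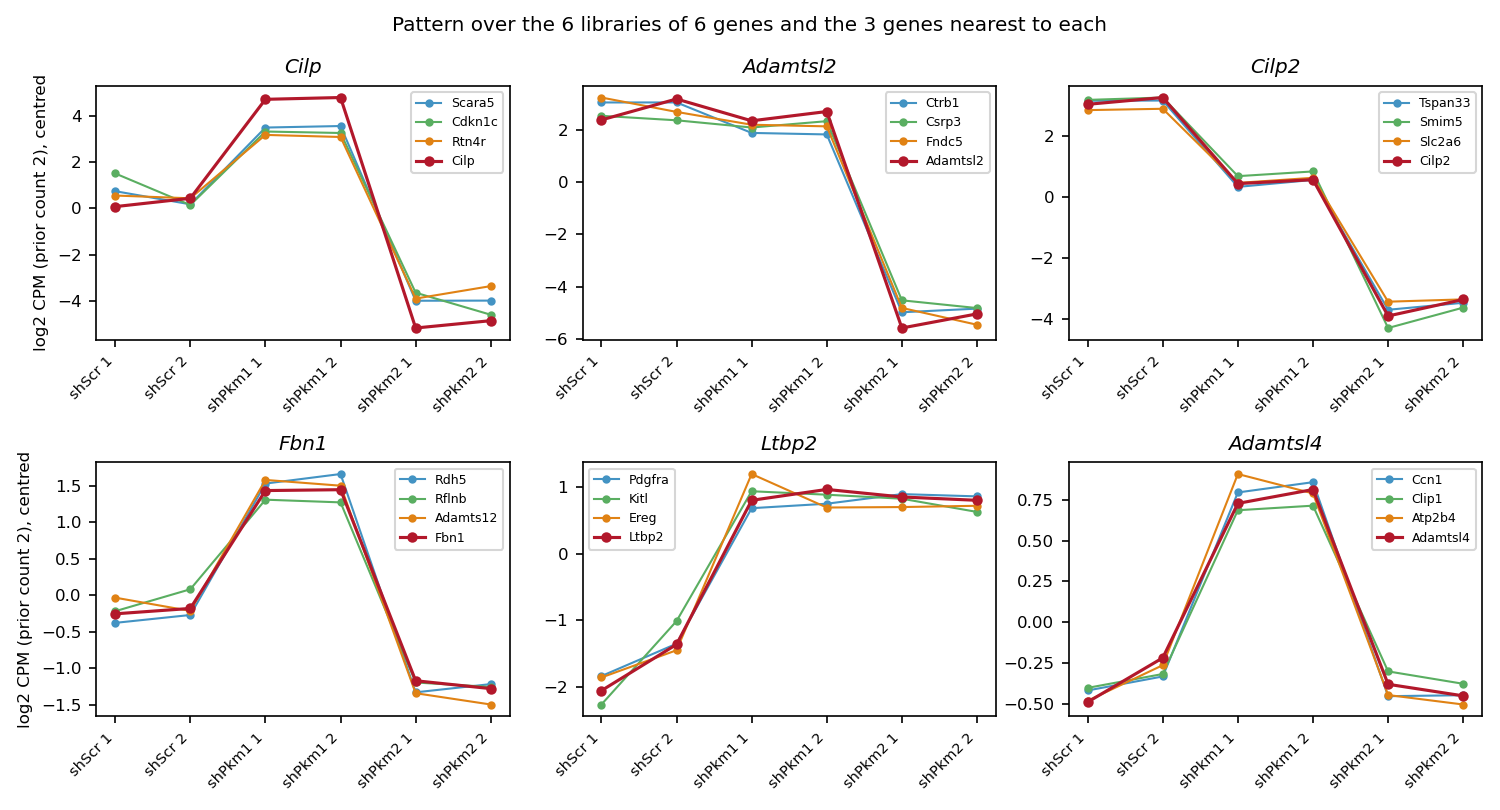
Log2 CPM (prior count 2, centred on the mean of the 6 libraries, vertical axis with its own range in each panel) of 6 of the genes in red and of the 3 genes nearest to each, by library. The lines of Adamtsl4 and Fbn1 lie within about the spread of their neighbours, while Cilp rises above its 3 nearest genes in both shPkm1 libraries and falls below them in both libraries labelled shPkm2. In the libraries labelled shPkm2 Cilp held 2 and 3 counts, and Scara5 and Rtn4r lay at 0.048 CPM or less. The gap there depends on the prior count and on each gene's mean, and nothing is read from it.

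A list of 39 partners of microfibrils and elastic fibres, other than the 10 genes, was counted next. It was written with earlier results known, and 34 of its genes were tested. In shPkm1 against shScr 26 were higher, 1 lower and 7 not called (79.4% called, against 63.1% of all genes), with a median log2 fold change of 1.19. In shPkm2 against shScr 14 were higher and 10 lower (70.6% called, near the 68.0% of all genes), with a median of 0.33, or 0.22 with the counting bounds of the 3 lowest genes in place of their fitted values; with library totals 20 were higher and 4 lower, and on log2(TPM + 1) 22 and 4. In shPkm2 against shPkm1 1 was higher and 26 lower (79.4% called, against 53.0%), with a median of -0.79.

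The microfibril-associated glycoprotein gene Mfap5, whose product binds fibrillin, had the largest fitted rise of the list in shPkm1. It went from 1.57 and 1.91 TPM in shScr to 59.29 and 57.1 TPM in shPkm1 and lay at 1.3 and 1.11 TPM in the libraries labelled shPkm2 (log2 fold change 4.81, SE 0.166, edgeR adjusted p = 1.05e-10, for shPkm1 against shScr). Mfap2, of the same pair, held 5 counts in shScr and 106 in shPkm1, which is 18.4-fold higher (95% counting interval 7.64 to 57.9). Adamtsl3, a further ADAMTS-like gene, was higher in both hairpin groups, with a log2 fold change of 4.39 (edgeR adjusted p = 1.43e-10) in shPkm1 and 2.59 (adjusted p = 1.69e-08) in shPkm2. Lox, the lysyl oxidase that cross-links elastin and collagen, was also higher in both, by 2.75 (edgeR adjusted p = 3.8e-10) and 1.39 (adjusted p = 7.95e-08) on the log2 scale.

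Other partners were lower in a hairpin group. Loxl2, another lysyl oxidase, was the 1 partner lower in shPkm1 against shScr (log2 fold change -0.56, edgeR adjusted p = 0.00187), a call kept in 13 of 17 alternatives. On the TPM scale its value was -0.13 or -0.15 and not called, and with curated transcripts only it was 0.52 and not called. Mfap4, which binds elastic fibres, held 4 counts in the libraries labelled shPkm2 against 186 in shScr, 58.6-fold lower (interval 22.5 to 217), and against 576 in shPkm1, 158-fold lower (interval 61.2 to 580). The small proteoglycan gene Dcn fell by 1.11 (edgeR adjusted p = 5.67e-05) and Loxl1 by 1.06 (adjusted p = 1.45e-06) in shPkm2 against shScr on the log2 scale, while Loxl4 rose by 1.46 (adjusted p = 1.96e-07). Directly between the hairpin groups, Mfap5 (log2 fold change -5.66) and Bgn (-3.21) were lower and Loxl2 (1.57) higher in shPkm2, with edgeR adjusted p of 3.57e-11, 1.79e-09 and 2.02e-07. The remaining binding proteins Ltbp3 and Ltbp4 each rose by 0.57 in shPkm1 (edgeR adjusted p = 0.000608 and 0.000162). In shPkm2 against shScr they had log2 fold changes of -0.11 (adjusted p = 0.407) and 0.22 (adjusted p = 0.0545). Eln, elastin itself, had at most 7 counts in a library and was not tested.

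**Figure D5:**
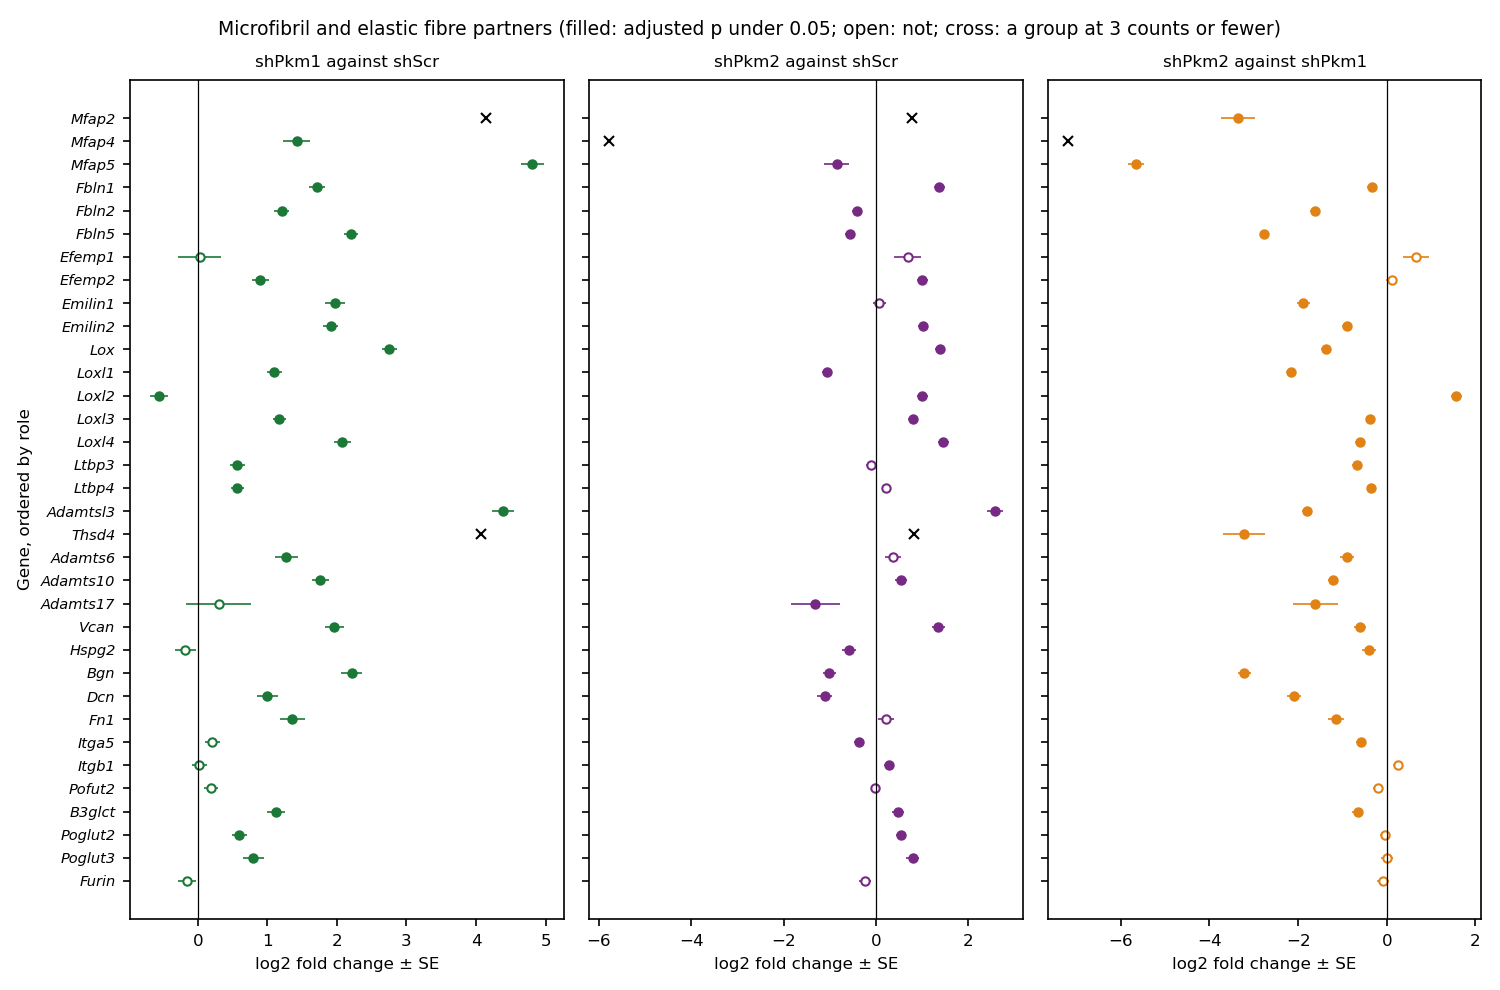
Log2 fold change with its standard error (horizontal axes, ranges differ between panels) of the 34 tested partners of microfibrils and elastic fibres in the 3 contrasts; filled points have an adjusted p under 0.05, open points do not, and crosses are fitted values of genes with a group at 3 counts or fewer. In shPkm1 against shScr 26 partners are called to the right of 0, in shPkm2 against shScr 14 to the right and 10 to the left (20 and 4 with library totals), and in shPkm2 against shPkm1 26 to the left.

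Of 46 genes for TGF-beta and IGF ligands, receptors, activators and targets, 42 were tested. The list goes beyond the TGF-beta and IGF1 that Ltbp1 and Cilp bind or oppose, and holds related ligands such as Bmp4 and Gdf11. In shPkm1 against shScr 28 were higher and 5 lower (78.6% called, against 63.1% of all genes; median log2 fold change 0.57), in shPkm2 against shScr 21 higher and 12 lower (78.6% against 68.0%; 0.21; 27 and 8 on log2(TPM + 1)), and in shPkm2 against shPkm1 7 higher and 21 lower (66.7% against 53.0%; -0.32; 11 and 20 with library totals). Tgfb1, the ligand carried by Ltbp1, had log2 fold changes of 0.26 (edgeR adjusted p = 0.0673), 0.04 (adjusted p = 0.755) and -0.22 (adjusted p = 0.135) in the same order, and was called in 6, 4 and 3 of 17 alternatives. Tgfb2 rose by 1.13 in shPkm1 and fell by 0.75 in shPkm2 (edgeR adjusted p = 2.51e-06 and 9.17e-05). Tgfb3 had a log2 fold change of 0.03 in shPkm1 (edgeR adjusted p = 0.838) and fell by 1.95 in shPkm2 (adjusted p = 3.59e-09).

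Igf1, which Cilp is known to oppose, was likewise highest in shPkm1, at 0.5 and 0.75 TPM in shScr, 18.95 and 14.7 TPM in shPkm1, and 0.36 and 0.22 TPM in the libraries labelled shPkm2. Against shScr it rose by 4.36 in shPkm1 and fell by 1.54 in shPkm2 on the log2 scale (edgeR adjusted p = 4.12e-10 and 0.000248). Igf2 fell by 2.45 in shPkm1 (edgeR adjusted p = 3.01e-06) and fell by 5.45 in shPkm2 (adjusted p = 3.3e-09), with values of -1.78 and -4.79 without shScr replicate 1. Among the other genes of the list, Mmp2 (3.52) and Bmp4 (3.36) rose most after Igf1 in shPkm1, and Itgb6 (-1.22) and Gdf11 (-0.57) were lower, with edgeR adjusted p of 2.17e-10, 1.7e-09, 9.56e-05 and 0.000458. In shPkm2 against shScr Itgb3 (2.49), Id3 (2.38) and Id1 (1.83) rose most, and Itgb6 (-3.48) and the collagen gene Col1a1 (-3.41) fell, with edgeR adjusted p of 2.49e-09, 1.96e-07, 1.02e-07, 2.4e-08 and 3.61e-10. Igf1 (-5.91), Col1a1 (-5.84) and Mmp2 (-4.64) differed most between the hairpin groups, all lower in the libraries labelled shPkm2 (edgeR adjusted p at most 6.9e-11). On log2(TPM + 1) the lower calls of Tgfb2 and Igf1 in shPkm2 and of Gdf11 in shPkm1 were not kept, and with curated transcripts only that of Itgb6 in shPkm1 was not.

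Of 19 ADAMTS proteinases, the catalytic relatives of the ADAMTS-like genes, 14 were tested. Adamts6, Adamts10 and Adamts17 among them were also counted in the list of microfibril partners. In shPkm1 against shScr 7 were higher and 4 lower (median log2 fold change 0.60; 8 and 2 with library totals, 8 and none on log2(TPM + 1)), in shPkm2 against shScr 2 higher and 9 lower (-0.90; 3 and 7 with library totals, 3 and 6 on log2(TPM + 1)), and in shPkm2 against shPkm1 none higher and 11 lower (-1.31), with 78.6% called in each, against 63.1%, 68.0% and 53.0% of all genes. Adamts2, the procollagen N-proteinase, rose by 2.15 in shPkm1 (edgeR adjusted p = 5.56e-09), and Adamts10, which binds fibrillin-1, by 1.76 (adjusted p = 8.45e-08) and by 0.54 in shPkm2 (adjusted p = 0.00221). Adamts12 rose by 1.68 in shPkm1 (edgeR adjusted p = 2.05e-07). There Adamts13 (-0.96), Adamts4 (-0.95) and Adamts1 (-0.40) were called lower (edgeR adjusted p = 0.00293, 0.00525 and 0.00828), but none of the 3 on the TPM scale. Adamts4 stood at 40.72 and 104.89 TPM in shScr and 48.26 and 48.24 TPM in shPkm1, and the groups overlapped in TPM. Those of Adamts1 overlapped too, at 16.14 and 21.01 TPM against 18.72 and 18 TPM. Without shScr replicate 2 the log2 fold change of Adamts4 was -0.23, and without shPkm1 replicate 1 Adamts4 and Adamts1 were not called. The proteoglycan-cleaving Adamts4 (-2.35) and Adamts5 (-1.65) and Adamts16 (-2.30) were lower in shPkm2 than in shScr (edgeR adjusted p = 4.32e-06, 5e-08 and 4.13e-07); for Adamts4 the value was -1.64 without shScr replicate 2. With curated transcripts only, the named calls of Adamts10 and Adamts16 were not kept. Among those with a mean of at least 50 counts, Adamts2 (-3.30), Adamts12 (-2.99) and Adamts16 (-2.56) were the lowest in shPkm2 against shPkm1 on the log2 scale (edgeR adjusted p = 1.28e-10, 1.47e-09 and 1.99e-07).

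Markers of other cell types were also counted, with no test on the lists. All 5 tested fibroblast markers were higher in shPkm1 than in shScr, and the summed TPM of the list of 7 was 920.71 and 1202.88 in shScr, 4906.8 and 4678.9 in shPkm1, and 1170.39 and 1014.31 in the libraries labelled shPkm2, with Tcf21 at 0 in all. Nearly all of it came from the collagen genes Col1a2 and Col3a1 (254.01 and 663.43 TPM of the first sum), while Pdgfra, at most 10.22 TPM, rose in both hairpin groups (log2 fold change 2.30 and 2.46 against shScr, edgeR adjusted p = 3.75e-08 and 7.35e-09). The tendon list of 6 summed to 300.54 and 334.26 TPM, 772.12 and 769.41 TPM, and 210.88 and 192.05 TPM in the same groups. In shPkm2 against shScr 1 fibroblast marker was higher and 2 lower, and of 4 tested tendon markers 3 were higher and 1 lower in shPkm1 and 2 higher and 2 lower in shPkm2. Col3a1, among those lower fibroblast markers (log2 fold change -0.49), overlapped in TPM, at 663.43 and 887.17 in shScr against 814.58 and 696.11 in the libraries labelled shPkm2. Both sums, like Fbn1 and Cilp, were highest in shPkm1, but most of the tendon sum there came from Fmod (510.8 and 477.36 TPM), a small matrix proteoglycan. Without it, a choice made after its values were seen, the tendon sum was 280.82 and 318.02 TPM in shScr, 261.32 and 292.05 TPM in shPkm1, and 206.08 and 188.12 TPM in the libraries labelled shPkm2. Most of that remainder was Scx, the tendon transcription factor scleraxis, at 233.34 and 280.24 TPM in shScr and 166.92 and 203.46 TPM in shPkm1. Scx fell by 0.85 in shPkm1 against shScr on the log2 scale, while Fmod (4.38), Mkx (0.97) and Egr1 (0.69) rose (edgeR adjusted p = 3.37e-05, 9.87e-11, 0.00116 and 0.000724). The part of these markers in the results was not tested. The cartilage markers Acan, Col9a1, Matn1, Hapln1, Chad and Snorc had at most 3 counts in each library, 3 of the 12 cartilage markers were at 0 throughout, and the list summed to 14.22 and 16.74 TPM in shScr, 26.26 and 25.44 TPM in shPkm1, and 39.48 and 33.58 TPM in the libraries labelled shPkm2. The cartilage collagen gene Col11a1 stood at 0.2 and 0.35 TPM in shScr, 9.07 and 8.93 TPM in shPkm1, and 1.08 and 0.89 TPM in the libraries labelled shPkm2. It was highest in shPkm1, with log2 fold changes of 4.76 and 1.55 against shScr and -3.21 between the hairpin groups (edgeR adjusted p = 1.58e-10, 2.54e-05 and 7.41e-10). Sox9, the cartilage transcription factor and most of the summed TPM, was instead highest in the libraries labelled shPkm2, with log2 fold changes of -0.31, 0.81 and 1.11 in the same order (edgeR adjusted p = 0.02, 1.01e-05 and 9.28e-07), of which the first was called in 10 of 17 alternatives and turned positive on the TPM scale. The bone list of 6 summed to 5.05 and 8.05 TPM, 19.55 and 16.23 TPM, and 17.51 and 16.12 TPM in these groups, and the fat list of 6 to 15.09 and 12.8 TPM, 29.45 and 30.54 TPM, and 52.51 and 46.44 TPM. Of the few tested, 1 of 4 cartilage, 1 of 3 bone and 2 of 3 fat markers were called higher in shPkm1, where 1 cartilage marker was lower, and 3 of 4, 1 of 3 and 2 of 3 were called higher in shPkm2, against shScr. Over all tested genes 31.8% were called higher and 31.4% lower in shPkm1, and 33.9% and 34.2% in shPkm2, against shScr. Nothing is read from counts over so few markers. In shPkm1 against shScr 6 of 8 proliferation markers were higher, and in shPkm2 against shScr all 8, among them Mki67 by 1.46 and 2.90 on the log2 scale (edgeR adjusted p = 5.43e-07 and 5.31e-10). Myog, the myogenic factor that drives differentiation, fell by 0.94 and fell by 5.35, and Mymk, the fusion protein myomaker, fell by 1.41 and fell by 7.36 in the same contrasts (edgeR adjusted p = 3.19e-05, 1.06e-11, 7.75e-07 and 3.66e-12).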

How the data were processed

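RNA of 6 C2C12 libraries was measured, 2 in each of 3 groups named in the titles. The table deposited by the authors holds 57920 transcript rows, with estimated counts and TPM values in each library per the file headers. In each library 48.0% to 50.7% of the rows held a whole number as estimated count, rows at 0 included. Deposited TPM summed to 999999 or 1000000. Its 6 FPKM columns and 9 columns of the authors' means were not used here. The submitters' processing notes name HISAT, StringTie, Bowtie, RSEM, DESeq2 and mm10, with no role or order. Which program made the counts, and strandedness, are not given in the sources used here.

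Estimated counts and TPM were summed per NCBI gene (17558 genes, of which 113 matched no symbol and held at most 0.148% of counts) and counts were rounded. The whole table was fitted with edgeR 4.0.16 in R 4.3.3 (filterByExpr with minimum count 10 and total 15, 12643 genes kept; trimmed mean of M values; 1 coefficient per group, 3 residual degrees of freedom; quasi-likelihood F-test, two-sided; Benjamini-Hochberg over all tested genes, threshold 0.05). The common biological coefficient of variation was 0.0851. Where both libraries of a group had at most 3 counts, a ratio of summed counts with an exact 95% interval is given, which covers counting error only, since no molecular identifiers are stated. The 10 genes and all lists were chosen with earlier results of these data known, so the 10 genes carry no p. Most list genes printed with an adjusted p were named for large fold changes among the called genes. A small p there follows from that choice and is no separate support for the 10 genes. The promoter windows came from RefSeq tables on GRCm38.p6, used for names and sequence.

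Named genes were the 10 genes, Pkm, per list up to 3 risen and 3 fallen genes per contrast with a mean of at least 50 counts and no overlap of groups, a few fixed ligands, partners and markers, and the 3 nearest genes of each tested gene. Of the marker lists only sums, counts and a few such genes are printed. Alternatives were other scalings and filters, DESeq2 1.42.0, fits of 2 groups, the replicate block, each library left out, limma 3.58.1 on log2(TPM + 1) and log2(TPM + 0.1), and curated transcripts only. The test was checked on simulated data for shPkm1 against shScr: 99 of 100 genes changed 2-fold and 44 of 100 changed by 0.5 on the log2 scale were called, against 4 of 12036 unchanged genes. In that simulation few genes changed, as many up as down, all with a mean of at least 50 counts. Every gene had the same spread. The check therefore cannot show how the scaling or the error rate holds where most genes are called, as here.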

Additional observations from a re-analysis of the deposited data

How the results depend on the processing

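Counts of called genes stayed within 1.5 times the reported count in the 17 alternatives, except with curated transcripts only (11882 genes tested): 5296 genes were called in shPkm1 against shScr and 4177 in shPkm2 against shPkm1, and 5 and 7 ADAMTS proteinases in those contrasts. Leaving out 1 library gave 6047 to 8284 called genes in shPkm1 against shScr, 7231 to 8792 in shPkm2 against shScr and 4939 to 7987 in shPkm2 against shPkm1; a group left with 1 library is assumed to vary like the others. The same omissions gave 8 to 9, 8, and 7 to 8 called matrix genes, 28 to 29, 19 to 28, and 23 to 30 partners, 28 to 34, 28 to 34, and 26 to 31 TGF-beta and IGF genes, and 8 to 13, 10 to 11, and 9 to 13 ADAMTS proteinases. Of the 459 recomputed fold changes of the 9 genes, 444 kept their sign. The exceptions were Adamtsl2 in shPkm1 against shScr (-0.65 to 0.16), Adamtsl4 in shPkm2 against shScr (-0.20 to 0.41) and Ltbp2 between the hairpin groups (-0.15 to 0.29). Adamtsl1 (both contrasts with shScr) and Ltbp1 (shPkm2 against shScr, 0.70) missed the threshold with curated transcripts only, and Adamtsl1 in shPkm2 against shScr also on log2(TPM + 1). Ltbp1 between the hairpin groups missed it on log2(TPM + 1) without a filter on low values, and Adamtsl5 between the hairpin groups in 9 of 17 alternatives. Adamtsl2 in shPkm1 against shScr passed it without shScr replicate 1, and Adamtsl4 in shPkm2 against shScr passed it on both TPM scales with the filter. Fitted values of Cilp2 and Adamtsl2 in shPkm2 against shScr ran from -11.01 to -7.99 and from -12.38 to -9.36 when 1 library was left out; they rest on 1 count. The cause of these changes was not tested.

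The replicate numbers in the labels are only numbers: deviations of same-numbered libraries correlated at -0.026, 0.042 and 0.053 across genes. With the replicate block 7922, 8566 and 6682 genes were called, and no called matrix gene lost its call. At this depth a gene with 3 or fewer counts in each library is known only within the wide counting intervals given.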
